A study of Mus musculus with 12 samples.

Results

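The cytosolic ribosomal protein genes were represented by 72 of the 33012 probes on the array, covering 62 genes. Members were all probes with 1 gene symbol that began with Rpl or Rps and a digit, or was Rplp0, Rplp1, Rplp2 or Rpsa, without the Rps6k kinases and without pseudogene symbols. The large subunit held 45 probes for 37 genes and the small subunit 21 probes for 19 genes. The rule also took in 4 genes set apart here as paralogs (Rpl3l, Rpl22l1, Rpl39l and Rps27l) and 2 symbols that are not ribosomal subunits (Rpl7l1 and Rps19bp1). Rpl36al, a relative of Rpl36a, was counted with the large subunit. There were 53 genes with 1 probe and 9 with several.

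RNA of skeletal muscle and of hypothalamus was measured on 12 one-colour arrays in 4 groups of 3. In each tissue 3 male mice of the homozygous congenic strain B6.CAST-17 were set against 3 male wild type B6 mice; the congenic strain carries chromosome 17 sequence of the wild-derived strain CAST on the B6 background. The sample titles call the congenics short in hypothalamus only, the segment's limits are not stated by any label, nor is it stated whether both tissues came from the same mice. Values are log2 intensities as deposited, with the base inferred from their range, and each tissue had been scaled to its own common distribution, whose median was 9.12 for muscle arrays and 8.98 for hypothalamus arrays.

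The cytosolic ribosome joins a small subunit, which reads the messenger RNA, to a large subunit, which forms the peptide bond. Most of its proteins are needed in equal numbers, and their messenger RNAs are among the most abundant of most tissues. Many start with a run of pyrimidines at the cap, the terminal oligopyrimidine tract, through which mTOR signalling controls their translation. Several have paralogs with restricted expression, of which Rpl3l, made in skeletal muscle and heart, is the best known.

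The starts of a few genes are shown. The paralogs Rpl3l, Rpl39l and Rps27l had the largest tissue differences, and Rps27 is set beside Rps27l. Rpl27a and Rps6 were higher in hypothalamus, and Rpl28 was higher in muscle. Rps10 and Rps18 lie on the chromosome that differs between the strains. Promoter entries of RefSeq (GRCm38.p6) were found for 52 of the 62 genes. Each line gives the 10 bases before the annotated start and the first 20 bases from it on, 5′ to 3′, and capitals mark the run of C and T bases that covers the annotated start, where it is at least 5 bases long. For Rpl3l and Rps27l the table lists more than 1 start, and the first one listed is shown. The windows are chr7:109519185-109519214 on the plus strand for Rpl27a, chr4:86857348-86857377 on the minus strand for Rps6, chr7:4792955-4792984 on the plus strand for Rpl28, chr17:27635225-27635254 on the minus strand for Rps10 and chr17:33955646-33955675 on the minus strand for Rps18. They are chr3:90213629-90213658 on the minus strand for Rps27, chr9:66946076-66946105 on the plus strand for Rps27l, chr16:10170218-10170247 on the plus strand for Rpl39l and chr17:24727816-24727845 on the plus strand for Rpl3l.
Rpl27a: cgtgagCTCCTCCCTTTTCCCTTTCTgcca
Rps6: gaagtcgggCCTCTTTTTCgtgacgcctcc
Rpl28: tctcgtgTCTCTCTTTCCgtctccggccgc
Rps10: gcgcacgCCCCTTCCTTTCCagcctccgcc
Rps18: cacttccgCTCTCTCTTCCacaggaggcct
Rps27: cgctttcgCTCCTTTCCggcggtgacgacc
Rps27l: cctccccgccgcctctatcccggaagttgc
Rpl39l: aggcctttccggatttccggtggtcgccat
Rpl3l: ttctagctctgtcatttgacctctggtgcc

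A run of at least 5 pyrimidines covered an annotated start in 16 of 46 subunit genes (34.8%) and in 0 of the 6 paralogs and non-subunit symbols. Over all 27025 genes of the promoter table the share was 11.8%. The motif CCGGAAG, read on either strand in the whole entry from 250 bases before to 50 bases after the start, lay in 21 of 46 subunit genes (45.7%). It lay in 2 of 6 paralogs and non-subunit symbols (33.3%) and in 9.93% of all genes. Both are counts of letters in a window and name no factor. A run that began past the annotated base, as in the windows of Rpl13a and Rps12, was not counted. The share with a run thus depends on where the start is annotated. The pyrimidine runs stood at the starts of Rpl27a and Rps6, which were higher in hypothalamus, and at that of Rpl28, which was higher in muscle.

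Member probes lay near the top of the intensity range on all arrays but 1. The median of the 72 probes was 18.4 to 18.6 on the 6 muscle arrays. In hypothalamus it was 17.71, 18.07 and 16.03 on congenic arrays 1 to 3, and 14.35, 17.03 and 16.95 on wild type arrays 1 to 3. Wild type hypothalamus array 1 therefore had the lowest median and congenic hypothalamus array 3 the next lowest. Over all probes, array 1 had Spearman correlations of 0.420 to 0.461 with the other hypothalamus arrays, which correlated at 0.775 to 0.853 among themselves. The median SD of a member over 3 arrays was 0.12 in wild type muscle and 0.19 in congenic muscle. It was 0.92 in congenic hypothalamus and 1.24 in wild type hypothalamus, or 0.24 in the latter without array 1.

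Muscle and neuron markers set the labelled tissues apart. Across the 12 arrays, the median of 10 skeletal muscle marker probes was 19.8 to 20.1 in muscle and 8.42 to 9.33 in hypothalamus. The median of 8 neuron marker probes was 8.44 to 10.7 in muscle, 16.04 to 17.21 on 5 hypothalamus arrays and 12.02 on wild type array 1. The median of 5 oligodendrocyte probes was 9.74 to 12.7 on those 5 arrays. On wild type array 1 it was 7.90, below the 8.36 to 9.02 of muscle. The median of 4 astrocyte probes overlapped, at 9.75 to 10.6 in muscle and 10.2 to 11.1 in hypothalamus. The median of 6 anterior pituitary probes was 15.3 on congenic hypothalamus array 1 and 9.49 to 10.7 on the other 5. The part of this difference in the results below was not tested.

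**Figure D1:**
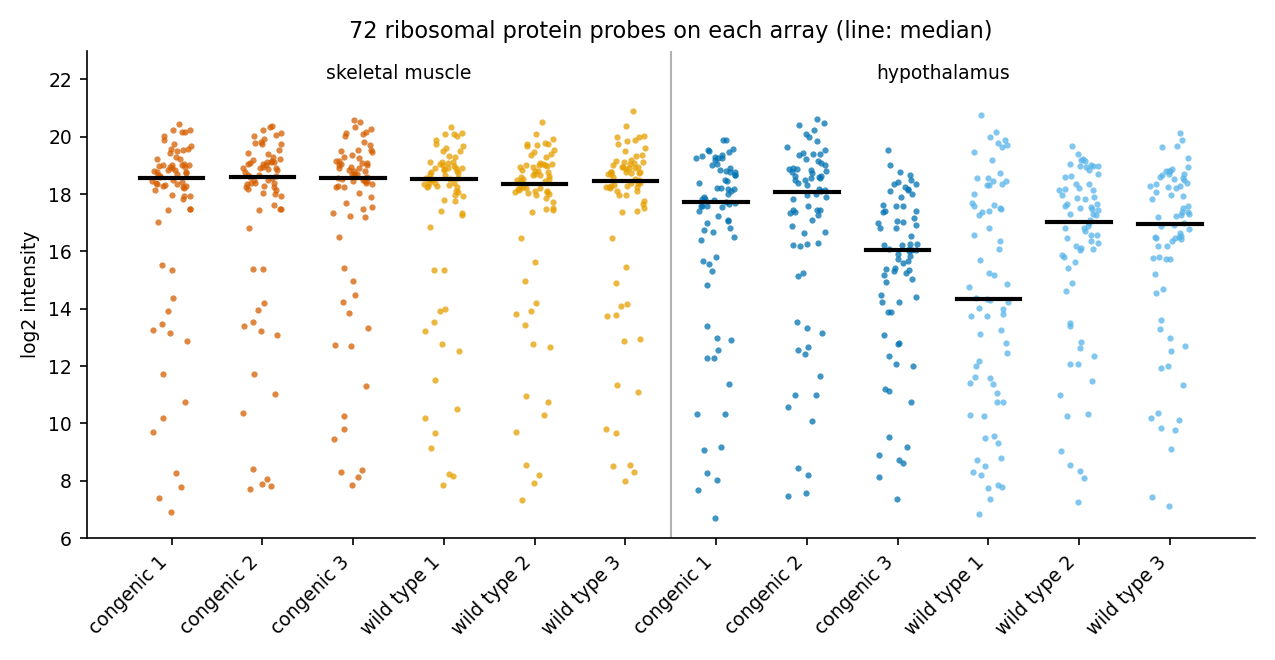
Log2 intensity (y axis) of the 72 member probes on each of the 12 arrays (x axis), 1 point per probe, with the median as a line. Medians are 18.4 to 18.6 in muscle, 14.35 on wild type hypothalamus array 1 and 16.03 on congenic hypothalamus array 3.

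On wild type hypothalamus array 1, part of the ribosomal protein probes were lost, a few fell by less, and others kept or exceeded their usual level. A probe was counted as lost when it lay more than 3 log2 units, or 8-fold, below the mean of the other 5 hypothalamus arrays; with 1 array there is no test. By this measure 24 of the 72 members were lost, each from a different gene, against 9.2% of all probes. A dim probe had little room to fall by 3, and the lost share of all probes was 0% in the bands under 9. It was 25.5% at 11 to 12, 34.4% at 12 to 13, and 25.8% to 38.9% in the bands above. The closer background is thus that of probes of similar level. Among probes with a mean of 13 or more on the other arrays, 24 of 58 members (41.4%) and 1393 of 4165 probes (33.4%) were lost. In the brightest band, at 18 and over, the shares were 7 of 22 members (31.8%) and 25.8% of all probes. In both sets the members' share was above that of all probes by a margin that was not tested. Below them, at 11 to 12 and at 12 to 13, 0 of 1 and 0 of 5 members were lost.

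Rpl3, which lies near the peptidyl transferase centre of the large subunit, showed the largest loss. Its values on the other arrays were 17.60, 18.89 and 19.55 in congenics and 19.05 and 18.59 in wild type, and 6.85 on array 1. Array 1 was below all 5, and its difference from their mean of 18.73 ± 0.72 (SD, n = 5) was -11.88. Rpl13a, a large subunit protein also known for a role in translational silencing, read 8.20 on array 1 against 19.65 ± 0.50 (SD, n = 5). Rpl9 read 7.78 against 18.68 ± 0.20, and the brighter probe of Rpl21 read 7.84 against 18.69 ± 0.69. All 3 had 5 closely grouped arrays and array 1 in the range where dim probes lie.

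The next 6 by size of loss were Rpl17 at 9.50 on array 1, Rpl34 at 7.38, Rps10 at 8.80, Rpl5 at 9.55, Rpl28 at 8.72 and Rpl14 at 8.52. Their differences from the other 5 arrays ran from -9.30 for Rpl17 to -7.70 for Rpl14. Rpl5 binds the 5S RNA of the large subunit, and Rps10 belongs to the head of the small subunit. Of the 24 lost members 13 fell short by more than 7 and 11 by 3 to 7, and all 24 lay below each of the other 5 arrays. On array 1, 12 of them read under 10 and 9 lay below the median of all probes of that array. Just inside the limit was Rpl35a with -3.21, and just outside it was Rps18 with -2.78.

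The loss took members of both subunits and parted probes of the same gene. It took 18 of 45 large subunit probes, 6 of 21 small subunit probes, and 0 of the 4 paralogs and 2 non-subunit symbols. Rpl36al, counted with the large subunit, was lost with -7.42. Rpl3l and Rpl39l were too dim on the other arrays to be counted as lost, since 0 of 11190 probes with a mean of 8 to 9 and 0 of 6538 dimmer ones were. Rpl26 had 1 probe at 20.76 on array 1 against 18.86 ± 0.58 (SD, n = 5) on the others, and another at 13.74 against 17.84 ± 0.65. Rpl31 differed by 0.05 at a probe with a mean of 18.5 and by -3.46 at a probe with a mean of 17.7. In both genes the probes were bright on the other 5 arrays, and 1 was lost while the other was not.

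Rpl14, Rpl21, Rpl34 and Rps24 paired a bright probe that was lost with a dim probe that was not. Rps24 differed by -3.71 at the bright probe and by 3.24 at the dim one. Rpl14 differed by -7.70 and 1.95, Rpl21 by -10.85 and 0.11, and Rpl34 by -8.92 and 0.55. The brighter probes of Rplp0, the base of the ribosomal stalk, and of Rps15a were not lost, at 0.88 and 1.51 above the mean of the others.

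The members that were not lost included bright ones. Among probes with a mean of 14 or more, 32 members did not pass the limit, with a median difference of 0.49, and their median level on the other arrays was 17.7 against 17.6 for the lost ones. Of these, 4 lay more than 1 below the mean of the others: Rps18 with -2.78, Rps29 with -2.17, Rps3a1 with -1.39 and Rpl37a with -1.22. Rpl19, a large subunit protein, read 19.98 on array 1 against 19.22 ± 0.47 (SD, n = 5). All 16 members with a mean under 14 were higher on array 1, by 0.11 to 3.45 with a median of 1.72. Of all 30462 probes at that level 55.9% were higher, with a median of 0.21. The largest rises were those of Rpl39l with 3.45, the dim Rps24 probe with 3.24 and Rpl3l with 3.10. After them came the brighter Rpl22 probe with 2.33, the dimmer Rplp0 probe with 2.32, Rpl37 with 2.23, Rpl4 with 2.15, Rps28 with 2.07, the dim Rpl14 probe with 1.95 and the brighter Rpl26 probe with 1.91.

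None of the other 11 arrays had a member more than 3 below the others of its tissue. Probes of other translation genes were lost as well. The loss took 6 of 11 probes of elongation factors, where Eef1a1, which delivers aminoacyl-tRNA, was lost at 1 probe (-11.78) and not at another (-0.16). Eef2, the translocation factor, read 7.66 on array 1 and 16.69 to 18.72 on the other 5. Fau, whose product is processed to a small subunit protein, differed by -6.31. Against 33.4% of all probes with a mean of 13 or more, the loss at that level took 6 of 7 elongation factor probes and 11 of 21 proteasome probes. It took 12 of 46 probes of mitochondrial ribosomal proteins (26.1%), 3 of 9 of ribosome biogenesis, 2 of 6 of other genes with a pyrimidine tract and 1 of 2 of mTOR and translation control. The share was thus above the background for the elongation factors and the proteasome, and not for the mitochondrial ribosome, biogenesis or other pyrimidine tract genes; no difference was tested.

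**Figure D2:**
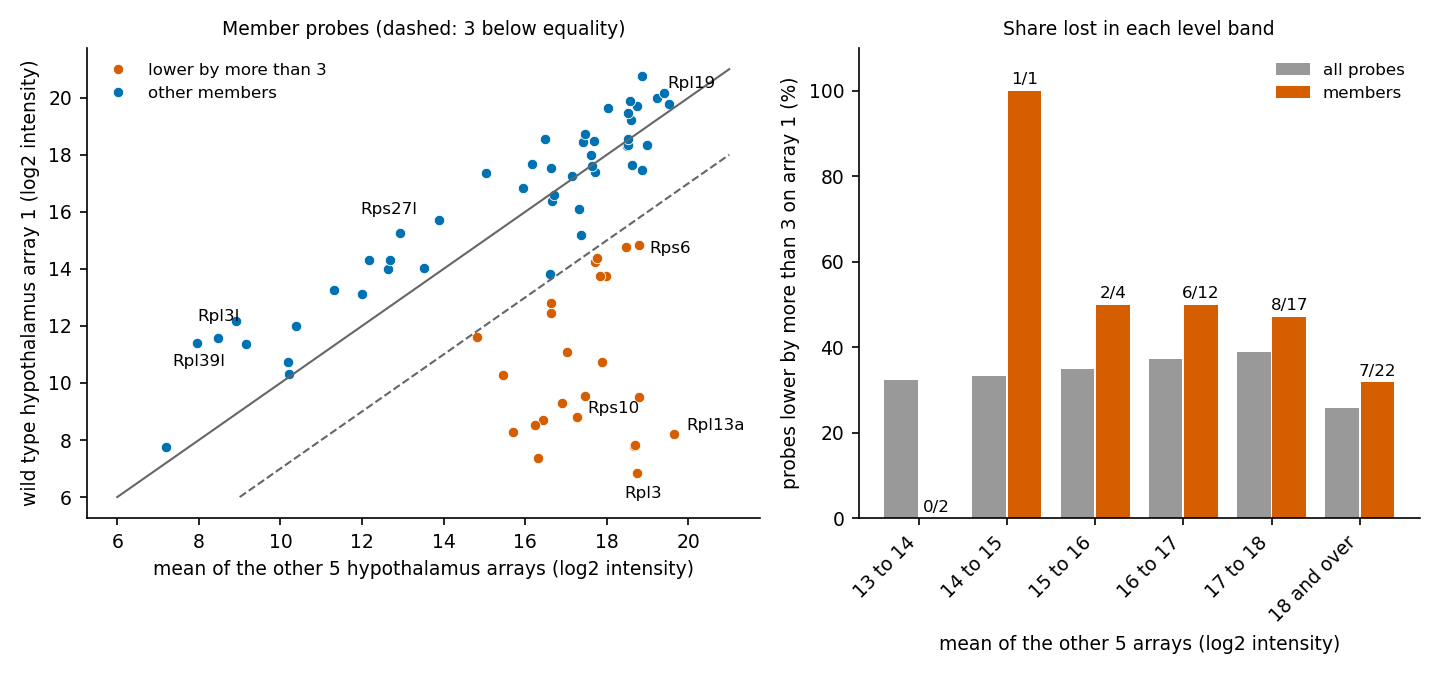
Left, log2 intensity on wild type hypothalamus array 1 (y axis) against the mean of the other 5 hypothalamus arrays (x axis) for 72 member probes, with the 24 lost ones in orange. Right, the percentage of all probes (grey) and of members (orange, with counts) lost in each band of that mean, such as 31.8% of members and 25.8% of all probes at 18 and over.

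Congenic hypothalamus array 3 stood apart by smaller differences in more members. With wild type array 1 set aside, 53 of 72 members were lower on it than on each of the other 4 arrays, against 23.7% of all probes. Among probes with a mean of 16 or more the counts were 45 of 52 members and 37.6% of 866 probes. The median difference of the members from the other 4 arrays was -1.29, with 62 members below their mean, while the median over those bright probes was 0.04. The members were higher on congenic arrays 1 and 2, with medians of 0.33 and 0.85. Rpl36, with 14.42 on array 3 and a lowest value of 16.30 on the others, had the largest difference at -2.76. It was followed by Rpl34 with -2.59, Rpl36a with -2.48, Rpl37a with -2.46 and Rps19 with -2.30. Next came Rps26 with -2.21, Rps29 with -2.20, Rpl35a with -2.18 and the bright Rps15a probe with -2.12. The 9 members that lay more than 2 below the mean of the others thus came from both subunits. Oligodendrocyte and neuron markers had their highest medians on the same array, with 12.75 against 9.74 to 11.33 and 17.21 against 16.04 to 17.15 on the other 4; their part in the members' differences was not tested.

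Between tissues, most ribosomal protein probes read higher in muscle as deposited, as bright probes did in general. The paralogs Rpl3l, Rpl39l and Rps27l had the largest differences, and a few core subunit genes read higher in hypothalamus. The 6 muscle arrays were compared with 5 hypothalamus arrays, without wild type array 1, in limma over all probes with a Benjamini-Hochberg adjusted p under 0.05. Of the 72 members 41 were higher in muscle (background 24.8% of all probes) and 5 were higher in hypothalamus (background 15.7%). Among bright probes, with a mean of 16 or more, 63.6% of the 55 members and 59.4% of all 876 probes were higher in muscle, so the members' share was near that of probes of like level. The median difference was 0.99 for members, 0.23 for all probes and 1.11 for all probes with a mean of 16 or more. In bulk tissue, fewer cells of a type and less RNA per cell cannot be told apart.

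Because the tissues had been scaled apart, the comparison was repeated after quantile normalization over all 12 arrays. The median of all probes then moved to 0.05 and that of the members to 0.28, and 18 members were higher in muscle (background 20.1%) and 9 higher in hypothalamus (background 18.6%). Among bright probes 23.6% of members and 36.9% of all probes were then higher in muscle, so that the members' share was below that of probes of like level. The sign of the difference turned for 16 members. Under both scalings 18 members were higher in muscle and 5 in hypothalamus, and the genes described next are among those 23 unless it is said otherwise.

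The largest differences were those of 3 of the 4 paralogs. Rpl3l, the striated muscle paralog of Rpl3, read 20.25, 20.25 and 20.59 in congenic muscle and 20.11, 20.11 and 20.39 in wild type muscle. In hypothalamus it read 8.02, 8.20 and 8.71 in congenics and 8.33 and 9.11 in wild type arrays 2 and 3. The tissues were far apart and the hypothalamus values lay around the median of all probes. The difference was 11.77 ± 0.20 (SE; limma adjusted p = 3.41e-14), and 11.45 after joint scaling. Without detection calls the low values cannot be told from background, so the size of the fold is not settled.

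Rpl3 itself, the protein that Rpl3l can replace in the ribosome, had the opposite pattern. Its values were 14.90 to 15.51 across muscle and 17.60 to 19.55 across the 5 hypothalamus arrays, with no overlap. The difference was -3.49 ± 0.30 (SE; limma adjusted p = 2.61e-07), an 11.2-fold lower level in muscle, and -4.16 after joint scaling. With array 1 kept in the fit, where the Rpl3 probe was lost, the difference was -1.49 and the adjusted p was 0.544. In that fit over 12 arrays 28 members passed, all among the 46 of the fit without array 1 (background 29.5%).

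Rpl39l, a paralog of Rpl39 best known from testis, read 12.74 to 13.81 in muscle and 7.43 to 9.04 in hypothalamus. Its difference was 5.37 ± 0.30 (SE; limma adjusted p = 3.31e-09). Rps27l, a p53-responsive paralog of Rps27, read 18.10 to 18.50 in muscle and 12.34 to 15.16 in hypothalamus, a difference of 4.45 ± 0.40 (limma adjusted p = 4.20e-07). Neither gene's tissues overlapped. Rpl22l1, the paralog of Rpl22, differed by 0.97 ± 0.25 (limma adjusted p = 0.00590) as deposited, and by 0.13 (adjusted p = 0.747) after joint scaling.

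Among large subunit genes, Rpl22, which also binds non-ribosomal RNAs, was higher in muscle at both probes, by 3.12 ± 0.34 and 1.55 ± 0.16 (SE). Rplp0 was higher at both probes as well, by 2.45 ± 0.18 and 2.12 ± 0.20. At the first Rplp0 probe the 6 muscle arrays read 14.97 to 15.62 and the 5 hypothalamus arrays 12.64 to 13.32. Rpl36al differed by 2.60, Rpl28 by 2.24 and Rpl37a by 2.19, and the small subunit gene Rps26 by 2.14. On array 1, however, that Rplp0 probe read 15.26 and the dimmer Rpl22 probe 14.29, each within its range in muscle. The brighter Rpl22 probe read 17.37 there, above the other 5 hypothalamus arrays and below the muscle arrays.

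Besides Rpl3, 4 members were higher in hypothalamus. Rpl27a, a large subunit protein, read 13.86 to 14.10 in muscle and 15.25 to 15.72 in hypothalamus, a difference of -1.54 ± 0.15 (SE; limma adjusted p = 1.31e-06). Rps6, the small subunit protein phosphorylated by the S6 kinases, read 17.26 to 17.53 in muscle and 18.34 to 19.25 in hypothalamus, a difference of -1.37 ± 0.22 (limma adjusted p = 1.24e-04). Neither overlapped between the tissues, and after joint scaling the differences were -2.14 and -2.15. In the fit with array 1 both lost their call, with adjusted p-values of 0.584 for Rpl27a and 0.451 for Rps6.

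The other 2 were dim probes whose gene had a bright probe with the opposite sign. Rps15a differed by -2.30 at its dim probe and by 2.11 at its bright one, and Rpl34 by -1.74 and 2.10. The bright Rpl34 probe did not pass after joint scaling (1.27, adjusted p = 0.0579), while both Rps15a probes passed under both. Without detection calls it is not known whether the dim probes measured these genes.

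As deposited, the 6 muscle arrays lay above the 5 hypothalamus arrays for 32 members (background 17.7%). They lay below them for 3, Rpl3, Rpl27a and Rps6 (background 11.8%). These counts were not made among bright probes or after joint scaling, so no excess of the members over probes of like level is shown by them. The calls as deposited took 25 higher and 3 lower of 45 large subunit probes, 12 and 2 of 21 small subunit probes, all 4 paralogs higher, and neither of the non-subunit symbols. Rpl7l1, a nucleolar relative of Rpl7, differed by 0.19, and Rps19bp1, which binds Rps19, by 0.30.

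Other translation lists were set beside the members. Of 67 mitochondrial ribosomal protein probes 56 were higher in muscle and 2 lower (median 1.74), and after joint scaling 48 and 3 (median 1.22). Of 29 proteasome probes 19 were higher and 2 lower (median 1.37), and 15 and 5 after joint scaling (median 0.71). Of 33 ribosome biogenesis probes 18 were higher and 3 lower, and 14 and 4 after joint scaling. Of 11 elongation factor probes 5 were higher and 3 lower, and 2 and 4 after joint scaling.

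Within the elongation factors Eef1a1 was lower in muscle at both probes, by -2.18 and -1.62. Eif5a, which relieves stalls at proline runs, was higher by 1.73, and Eef2k, the kinase that inhibits Eef2, by 1.75. These 3 kept sign and call under joint scaling. Eef1a2, the muscle and neuron form of Eef1a1, differed by 1.23 and then by 0.40 (adjusted p = 0.297). Of 13 probes of mTOR and translation control 6 were higher and 2 lower, and 6 and 3 after joint scaling, led by Eif4ebp1, a repressor of cap-dependent initiation, with 6.82 at 1 of its 2 probes and 1.14 at the other. Of 9 probes of other genes with a pyrimidine tract 5 were higher and 2 lower, and 2 and 3 after joint scaling. Fau differed by 1.31 (adjusted p = 0.0437), and by 0.70 (adjusted p = 0.334) after joint scaling.

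**Figure D3:**
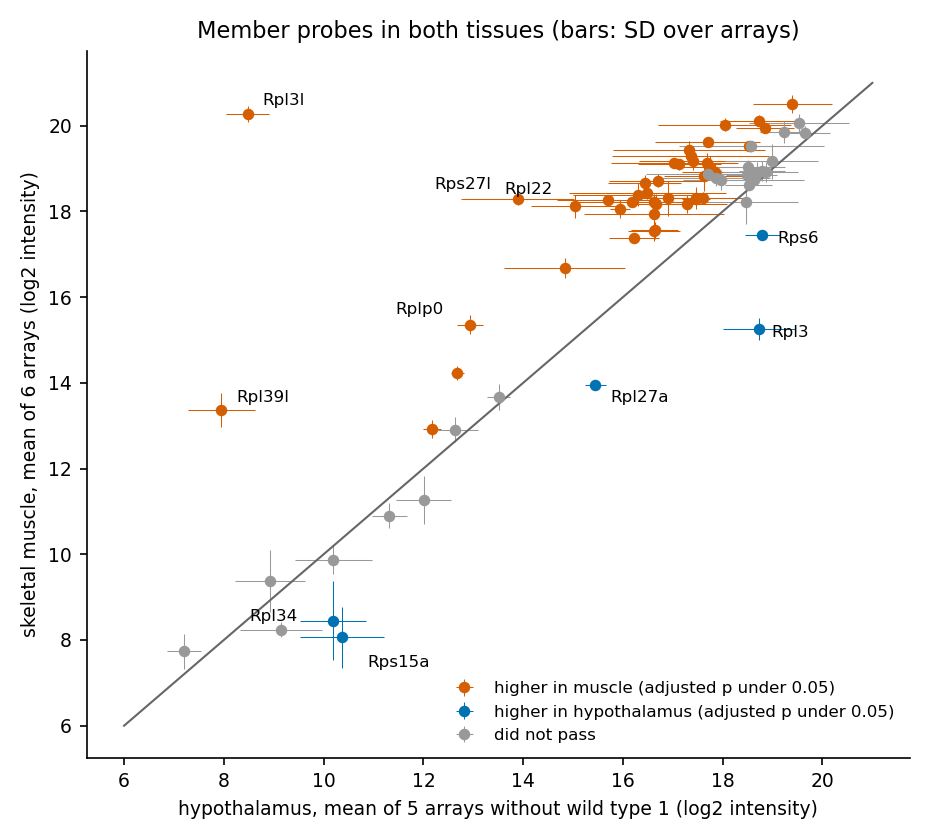
Mean log2 intensity of each member probe in skeletal muscle (y axis, 6 arrays) against hypothalamus (x axis, 5 arrays), with SD bars and the line of equality. Of the 72 probes 41 lie above it and 5 below it with an adjusted p under 0.05 as deposited; after scaling over all 12 arrays the counts were 18 and 9.

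In muscle, no ribosomal protein gene passed the test between the strains, and most differences were small and positive. With 3 arrays a strain, a p above the threshold does not show that levels were equal. Of 72 members 0 passed in limma (background 0.0182%, or 6 of 33012 probes), and 1 had an unadjusted p under 0.05 (background 5.01%). The congenic mean was higher for 52 of 72 members, against 51% of all probes, and for 44 of 55 members with a mean of 16 or more, against 461 of 876 such probes. The median difference was 0.14, against 0.01 over all probes, and was 0.09 to 0.15 when each array was left out in turn. The shift was not particular to the members. The congenic mean was also higher for 51 of 67 mitochondrial ribosomal protein probes (median 0.17) and 20 of 29 proteasome probes (median 0.11). It was higher for 19 of 33 ribosome biogenesis probes and 5 of 11 elongation factor probes. The congenic arrays all lay above the wild type arrays for 13 members (18.1%; background 6.65%), namely Rpl3, Rpl9, Rpl13a, Rpl22, Rpl26, Rpl28, Rpl36al, Rpl38, Rpl39, Rpl41, Rplp1, Rps13 and Rps27. Of these, Rpl22 was counted at its dimmer probe only and Rpl26 at its brighter probe only. The congenic arrays all lay below the wild type arrays for 1 member, Rpl17 (background 5.27%).

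The smallest p belonged to Rps13, a small subunit protein, with 18.24, 18.24 and 18.58 in congenics and 17.98, 17.86 and 18.10 in wild type. The groups did not overlap, and the difference of 0.37 ± 0.15 (SE) had a limma adjusted p of 0.835. Rps7 differed by 0.43, Rpl3 by 0.37, Rpl41 by 0.33 and Rpl17 by -0.34, each with the same adjusted p of 0.835. Wild type muscle array 2 lay below the mean of the other 5 for 60 members, with a median difference of -0.16. The median over all bright probes of that array was -0.01. The share of all probes below the mean was not computed. Macrophage markers were higher in congenic muscle at 4 of 4 probes (median 0.87) and fibroblast markers at 4 of 4 (median 0.48), with none called in limma and 3 of 4 in each list at an unadjusted p under 0.05. The array medians of the macrophage markers were 14.6 in all 3 congenics and 13.4 to 14.2 in wild type; their part in the members' differences was not tested.

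The 7 members on chromosome 17 stand in the order Rpl3l, Rps10, Rpl10a, Rps28, Rps18, Rpl7l1 and Rpl36. Whether any lies in the exchanged segment is not known from the labels. In muscle 6 of the 7 were positive, from 0.11 for Rpl10a to 0.25 for Rpl36, and Rps10 differed by -0.12. Rpl3l differed by 0.17, Rpl7l1 by 0.16, and Rps18 and Rps28 by 0.14 each. No standard error was under 0.14, and the lowest adjusted p was 0.835.

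In hypothalamus, no member passed the test between the strains either, with or without the array that lost part of its signal, and the spread between arrays was wider than in muscle. With all 6 arrays 0 of 72 members passed in limma (background 0%), and 0 had an unadjusted p under 0.05 (background 1.99%). The differences nearest to the threshold were those of Rps29 with 1.74 ± 0.99 (SE), Rps14 with 1.56 ± 0.89, Rpl39l with -1.53 ± 0.93, Rpl21 with 4.10 ± 2.50 and Rpl3l with -1.36 ± 0.86, each with an adjusted p of 0.936. Rpl21 read 18.79, 19.85 and 18.15 in congenics and 7.84, 18.36 and 18.29 in wild type. Only array 1 stood apart, and the difference was 0.60 without it. No member had congenic arrays all above (background 3.47%) or all below (background 5.69%) the wild type arrays.

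Without wild type array 1, 0 members passed (background 0%) and 0 had an unadjusted p under 0.05 (background 5.33%). The median difference was 0.11, with 45 of 72 members positive (49.3% of all probes). The congenic arrays all lay above both wild type arrays for 2 members, Rpl27 and Rpl7l1 (background 9.32%). They all lay below for 4, namely Rpl10, Rpl27a, Rps3a1 and Rps7 (background 13.3%). Rpl27 differed by 0.96 ± 0.59 (SE), Rps3a1 by -0.97 ± 0.65, Rps7 by -0.85 ± 0.62 and Rpl10a by -0.58 ± 0.43, with limma adjusted p-values of 0.900 to 0.901.

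Rps28, a small subunit protein on chromosome 17, read 17.83, 18.48 and 14.92 in congenic hypothalamus and 18.56, 15.41 and 15.79 in wild type. Each strain thus had values near 15 and near 18, and the groups overlapped. The difference was 0.49 ± 1.14 (SE) with all arrays and 1.48 ± 0.94 (limma adjusted p = 0.900) without array 1. Rps10 read 17.65, 17.46 and 15.86 in congenics and 8.80, 17.49 and 17.92 in wild type. Its difference changed sign with array 1, from 2.25 with it to -0.72 without it, and that of Rpl10a from 0.82 to -0.58. Without array 1, Rpl3l differed by -0.41, Rpl7l1 by 0.27, Rpl36 by 0.13 and Rps18 by 0.12.

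With congenic array 3 left out as well, 7 members were higher in congenics (background 1.25%, or 414 of 33012 probes). Among bright probes 10.9% of members and 7.53% of all probes were higher. The 7 were Rps28 with 2.56, Rps29 with 2.40, Rps27 with 2.04, Rpl37a with 2.00, the bright Rps15a probe with 1.55, Rps27l with 1.44 and Rpl35a with 1.36, with limma adjusted p-values from 0.0106 to 0.0466. That array was set aside after its member values were seen to be low, so the calls describe the remaining 4 arrays and are no evidence of a strain effect.

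**Figure D4:**
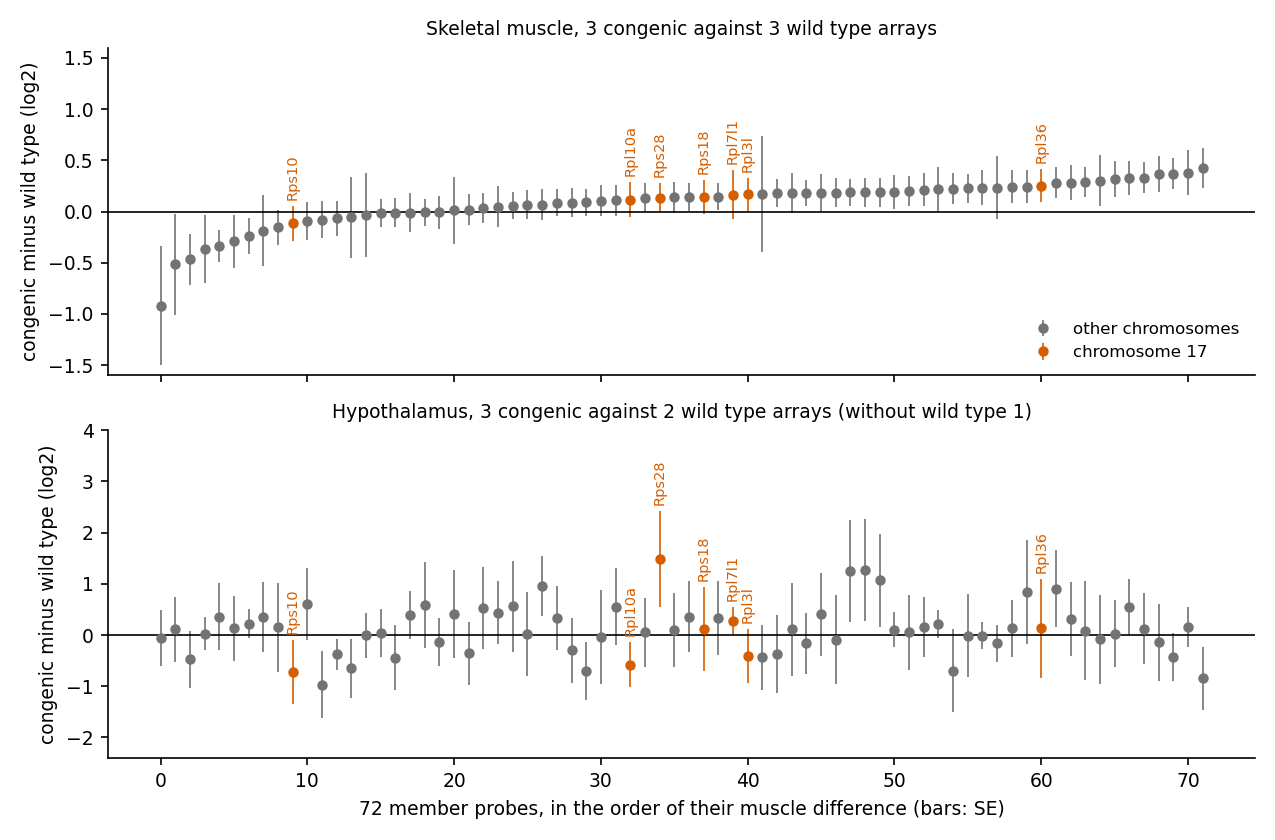
Congenic minus wild type difference (y axis, log2, with SE bars) of the 72 member probes in muscle (top) and in hypothalamus without wild type array 1 (bottom), both in the order of the muscle difference (x axis). Chromosome 17 genes are in orange, and 0 of the 72 members passed in either tissue.

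The strain differences of the tissues were compared by the interaction over 11 arrays, without wild type hypothalamus array 1. In limma 0 members passed (background 0%) and 0 had an unadjusted p under 0.05 (background 6.74%). The smallest p belonged to Rps7, whose strain difference was more positive in muscle by 1.27 ± 0.62 (SE; limma adjusted p = 0.739). Rpl10 followed with 0.79, Rps3a1 with 0.89, Rps13 with 0.80 and Rpl27 with -0.89. Without congenic hypothalamus array 3, 8 members passed (background 0.53% in the same direction): Rpl31, Rpl37a, Rps15a, Rps26, Rps27, Rps27l, Rps28 and Rps29, all with a more positive strain difference in hypothalamus. Of these, Rpl31 passed at 1 of its probes only and Rps15a at its bright probe only. Because that array was set aside after its member values were seen to be low, these calls are no evidence of an interaction. The share among bright probes was not computed for this fit.

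**Figure D5:**
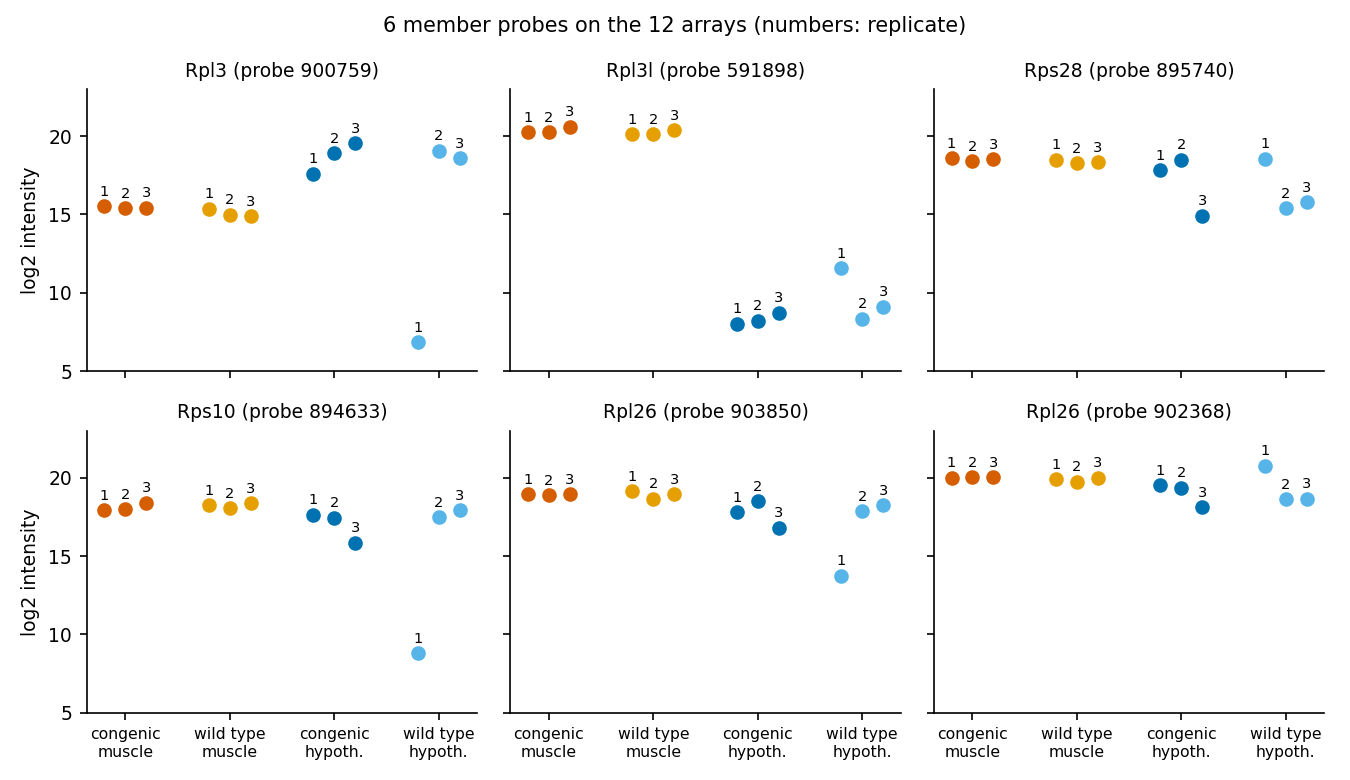
Log2 intensity (y axis) of 6 member probes on the 12 arrays by group (x axis), with replicate numbers at the points. Rpl3 and Rps10 fall to 6.85 and 8.80 on wild type hypothalamus array 1, Rpl3l splits the tissues, Rps28 overlaps between strains in hypothalamus, and the 2 Rpl26 probes part on array 1 at 13.74 and 20.76.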

How the data were processed

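Total RNA was labelled with digoxigenin and read on chemiluminescent arrays, per the labels' protocols. The authors deposited values that were read as log2 intensities; the scanning software and any background correction are not stated by the labels, and the shared distribution of each tissue's 6 arrays is that of quantile normalization. Values were used without floor or filter. Groups came from the sample titles. The description field of the labels names the congenic strain for wild type samples too, so the assignment rests on the titles. The series text calls the mice of a strain biological replicates. Probes were named from the platform annotation, and 1 probe that names a member beside another gene was left out.

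Differences were fitted over all 33012 probes in limma 3.58.1 under R 4.3.3, using lmFit and eBayes with its intensity trend, and p-values were adjusted by Benjamini-Hochberg and called under 0.05; the fits were tested on simulated data. The number of arrays limits the precision, and without detection calls signal over background is unknown. The members, lists, named genes and the omission of wild type hypothalamus array 1 from the tissue and interaction fits were chosen with earlier results of these data known. Genes named are members that passed, at most 10 in each direction, or those with the smallest p up to 5 where fewer passed; the 10 largest and 10 smallest losses on array 1; members on chromosome 17; paralogs and non-subunits; and genes whose probes disagree. Alternatives were other scalings, a floor, a filter, no trend, 1 probe a gene, a replicate block and leaving out arrays. Leaving out congenic hypothalamus array 3 together with wild type array 1, and the background of bright probes, were chosen after seeing the data.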

Additional observations from a re-analysis of the deposited data

How the results depend on the processing

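Of 779 values recomputed under an alternative, 762 counted as the same. Among values of single genes 623 kept direction and call, 9 reversed and 3 lost their call. Among member counts and medians 139 stayed within a set tolerance, which did not require the same sign, and 5 moved. The 0 calls of both strain comparisons held under every scaling, floor, filter and single left-out array, and 7 members passed in hypothalamus without wild type array 1 and congenic array 3. Leaving out single arrays gave 40 to 52 tissue calls, 0 to 8 interaction calls and 23 to 25 lost members, and member medians of 0.094 to 0.15 in muscle, -0.22 to 0.83 in hypothalamus, 0.75 to 1.14 between tissues and -0.46 to 0.30 for the interaction. The 8 interaction calls came without congenic hypothalamus array 3. Tissue calls fell from 46 to 27, and their median to 0.28, after quantile normalization over 12 arrays, and to 28 with all 12 arrays; the cause of the first was not tested. Over left-out arrays in muscle, Rpl10a ranged from -0.031 to 0.19 and Rpl7l1 from -0.082 to 0.31, both negative only without congenic array 3. In hypothalamus Rpl10a ranged from -0.58 to 1.72 and Rps10 from -0.72 to 3.84, both negative only without wild type array 1. Rpl7l1 ranged from -0.099 to 0.27, negative without congenic array 3 (-0.095), wild type array 2 (-0.038) or wild type array 3, and Rps28 from -0.21 to 1.57, negative without congenic array 2 or wild type array 2 (-0.096). Same-numbered arrays had deviations correlated at -0.129 to 0.138, and differently numbered arrays at -0.156 to 0.144. Between tissues within a strain, same-numbered arrays correlated at 0.020 to 0.076 and the others at -0.078 to 0.043. These small values do not settle whether the numbers mark pairs, and the main fits did not take them as pairs. With the replicate block 0 members passed in each strain test and in the interaction, and 41 between tissues. The arrays number 3 per group, and dim probes cannot be told from background.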
